A study of Mus musculus with 9 samples.

Results

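Keratinocytes take and keep their identity through a small set of transcription factors, and 10 genes of such factors are described here: Trp63, Grhl1, Grhl2, Grhl3, Ovol1, Klf4, Klf5, Cebpa, Cebpb and Runx1. They were chosen by name, with earlier results of these data already known, and all 10 were found among the 36442 genes of the epidermal table. The study sequenced RNA of 9 sorted mouse samples, of which the 4 libraries of keratinocytes sorted from adult skin epidermis are used here: 2 WT and 2 Mi2. The columns of the Mi2 libraries carry the letters KO, the usual short form of knock-out, and Chd4 encodes Mi-2β, an ATPase that remodels chromatin. The sources used here do not give the strain, the allele, the driver and time of the deletion, the sex or the exact age of the mice. Nor do they tie the replicates to separate mice, so the p-values measure the spread between these libraries, which may be technical.

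As background, p63 (Trp63) is the master regulator of stratified epithelia and keeps basal cells proliferative. As these cells leave the basal layer, Grainyhead-like factors (Grhl1, Grhl2, Grhl3), the zinc finger proteins Ovol1 and Klf4 and the C/EBP factors (Cebpa, Cebpb) take part in growth arrest, cell adhesion and barrier formation. Klf5 is a basal and progenitor factor of epithelia, and Runx1, better known from blood formation, acts in hair follicle stem cells and in wounded skin.

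The promoters are shown to let the genes that rose in Mi2 epidermis be set beside a family member that was not called. RefSeq promoter windows of build GRCm38.p6 were matched by symbol for 6 of the 10 genes (Grhl1, Grhl3, Klf4, Cebpa, Cebpb and Runx1), with 8 windows in all, and the 250 bases before the annotated start are used. Capitals mark matches, on either strand, to 7 motifs: CCNCNCCC for Klf factors, TGTGGT for Runx factors, AACCNGTT for Grhl factors, TTGCNNAA for C/EBP factors, CCGTTA for Ovol factors, TGANTCA for AP-1 and TATAAA for the TATA box. Neighbouring Klf matches can overlap each other. Grhl3, a gene that rose, has its window at chr4:135573633-135573882, minus strand. Cebpb, which also rose, has it at chr2:167688665-167688914, plus strand, and Cebpa, its paralog that was not called, at chr7:35119043-35119292, plus strand. Runx1 has a proximal window at chr16:92697330-92697579, minus strand, and a distal window at chr16:92826075-92826324, minus strand.
Grhl3: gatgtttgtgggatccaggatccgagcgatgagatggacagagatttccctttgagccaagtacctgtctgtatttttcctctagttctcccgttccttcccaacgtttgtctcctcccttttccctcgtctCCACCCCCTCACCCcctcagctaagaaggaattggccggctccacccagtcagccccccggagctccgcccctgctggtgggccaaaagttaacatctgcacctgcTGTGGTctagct
Cebpb: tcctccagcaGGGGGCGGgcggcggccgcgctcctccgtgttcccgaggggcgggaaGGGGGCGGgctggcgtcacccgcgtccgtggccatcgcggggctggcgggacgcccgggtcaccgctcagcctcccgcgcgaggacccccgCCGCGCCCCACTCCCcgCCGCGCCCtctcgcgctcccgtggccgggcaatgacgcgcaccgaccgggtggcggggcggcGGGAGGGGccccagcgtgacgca
Cebpa: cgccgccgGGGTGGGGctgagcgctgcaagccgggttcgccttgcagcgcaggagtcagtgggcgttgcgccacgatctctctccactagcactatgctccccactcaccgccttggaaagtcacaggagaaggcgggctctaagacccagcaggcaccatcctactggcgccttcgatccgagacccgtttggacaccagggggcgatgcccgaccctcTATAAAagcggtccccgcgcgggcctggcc
Runx1 proximal: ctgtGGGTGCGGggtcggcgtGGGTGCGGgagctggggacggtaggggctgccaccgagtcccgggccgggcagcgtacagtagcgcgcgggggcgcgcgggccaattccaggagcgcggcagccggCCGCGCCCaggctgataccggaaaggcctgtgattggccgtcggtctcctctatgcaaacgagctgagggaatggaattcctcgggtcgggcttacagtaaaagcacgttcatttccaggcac
Runx1 distal: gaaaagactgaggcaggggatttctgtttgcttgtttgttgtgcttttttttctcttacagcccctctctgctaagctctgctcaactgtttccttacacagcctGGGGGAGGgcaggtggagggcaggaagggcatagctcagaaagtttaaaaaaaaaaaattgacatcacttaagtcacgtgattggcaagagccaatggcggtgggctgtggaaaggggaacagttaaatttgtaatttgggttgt

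The Cebpb window was dense in CpG, with 41 CpG dinucleotides and 81.6% G and C, against a median of 6 and 52.4% over 32841 windows of the same length. Cebpa had 22 CpG and the proximal Runx1 window 27, while Grhl3 had 8 and the distal Runx1 window 2. Of the genes not called, Klf4 had 32 CpG and 74.0% G and C, and the 2 Grhl1 windows had 27 and 0 CpG. Klf motifs numbered 6 in Cebpb, 3 and 1 in the proximal and distal Runx1 windows, 2 in Grhl3 and 1 in Cebpa, a motif present in 45.9% of all windows. Klf4, which was not called, had the most, 9, and the Grhl1 windows had 2 and 0. The Grhl3 window held 1 Runx motif, 12 bases before the start, and 14.0% of all windows hold it. Cebpa held the only TATAAA of the 8 windows, 30 bases before its start, against 12.4% of all windows. No match to the Grhl, C/EBP, Ovol or AP-1 letters lay in any of the 8 windows, and such matches occur in 1.79%, 9.57%, 2.18% and 6.75% of all windows. A match describes the letters of the window and no more.

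The 4 libraries held 5682391 to 8913804 reads over genes. Chd4 had 1607 and 1942 normalized reads in the WT libraries against 734 and 1207 in the Mi2 libraries (log2 change -0.91, limma adjusted p = 0.0456). Leaving out either WT library (-1.04 and -0.77) or Mi2 replicate 1 (-0.55) ended that call, as did edgeR on recovered reads (-0.87), limma without trend and no filter on low values. Mitochondrially encoded genes took 12.9% to 13.8% of reads in WT, 29.7% in Mi2 replicate 1 and 15.5% in Mi2 replicate 2. A fit below is scaled by the total reads of all other genes, which also replaces the authors' scaling. The part of the mitochondrial genes by themselves in the results below was not tested. The 10 keratinocyte marker genes were all tested, 1 rose, 2 fell and 7 were not called, and their summed level was 320343 and 296420 normalized reads in WT, against 330557 and 281251 in Mi2. The basal keratin Krt5 lay between 117800 and 165634 and Krt14 between 32291 and 79944, while Krt15, a basal-layer and bulge stem cell keratin, fell from 49093 and 40508 to 4202 and 8781 (log2 change -2.88, limma adjusted p = 0.00434). The suprabasal keratin Krt1 fell by 1.67 on the log2 scale (limma adjusted p = 0.0175). The part of a shift among keratinocyte types in the results was not tested. In bulk RNA of this kind, fewer cells of a type and less RNA per cell cannot be told apart.

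Values below are normalized reads, the deposited read counts scaled by 1 factor per library, and log2 changes are Mi2 minus WT on log2(normalized reads + 1) from limma. Calls rest on a p under 0.05 after Benjamini-Hochberg adjustment over all 14461 genes tested. Of the 10 factors, Grhl3, Ovol1, Cebpb and Runx1 rose in Mi2 epidermis, none fell and 6 were not called. Over all tested genes 28.2% were called, 15.1% higher and 13.1% lower, beside 4 of these 10 higher. Nothing particular to these genes is read from a list this short. At an unadjusted p under 0.05, limma gave 5 higher and 0 lower. edgeR and voom each called 4 higher and 0 lower, and DESeq2 called 5 and 0. The median log2 change of the 10 factors was 0.59 beside -0.03 over all tested genes. Without WT replicate 1 the number called was 1, and without WT replicate 2 it was 2, while all tested genes then gave 1113 and 1441 calls in place of 4085.

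The values did not overlap between groups in 9 of the 10 genes, 7 higher and 2 lower in Mi2, and only Klf4 overlapped. With 2 libraries a group this says little, since 70.7% of all tested genes did not overlap, 34.9% higher and 35.8% lower. The scaling matters for small changes. In 2 other scalings each library was scaled by its total reads, counted without the 50 most abundant genes or without mitochondrial genes. Both replace the authors' factors as well as leave genes out, and these 2 steps were not separated. With them the median of all genes moved by -0.13 and -0.24 on the log2 scale. The called genes were 2185 higher and 1900 lower with the authors' scaling, 1732 and 2098 without the 50 most abundant genes and 1523 and 2742 without mitochondrial genes. Grhl3, Ovol1, Cebpb and Runx1 were called higher under each of these scalings.

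**Figure D1:**
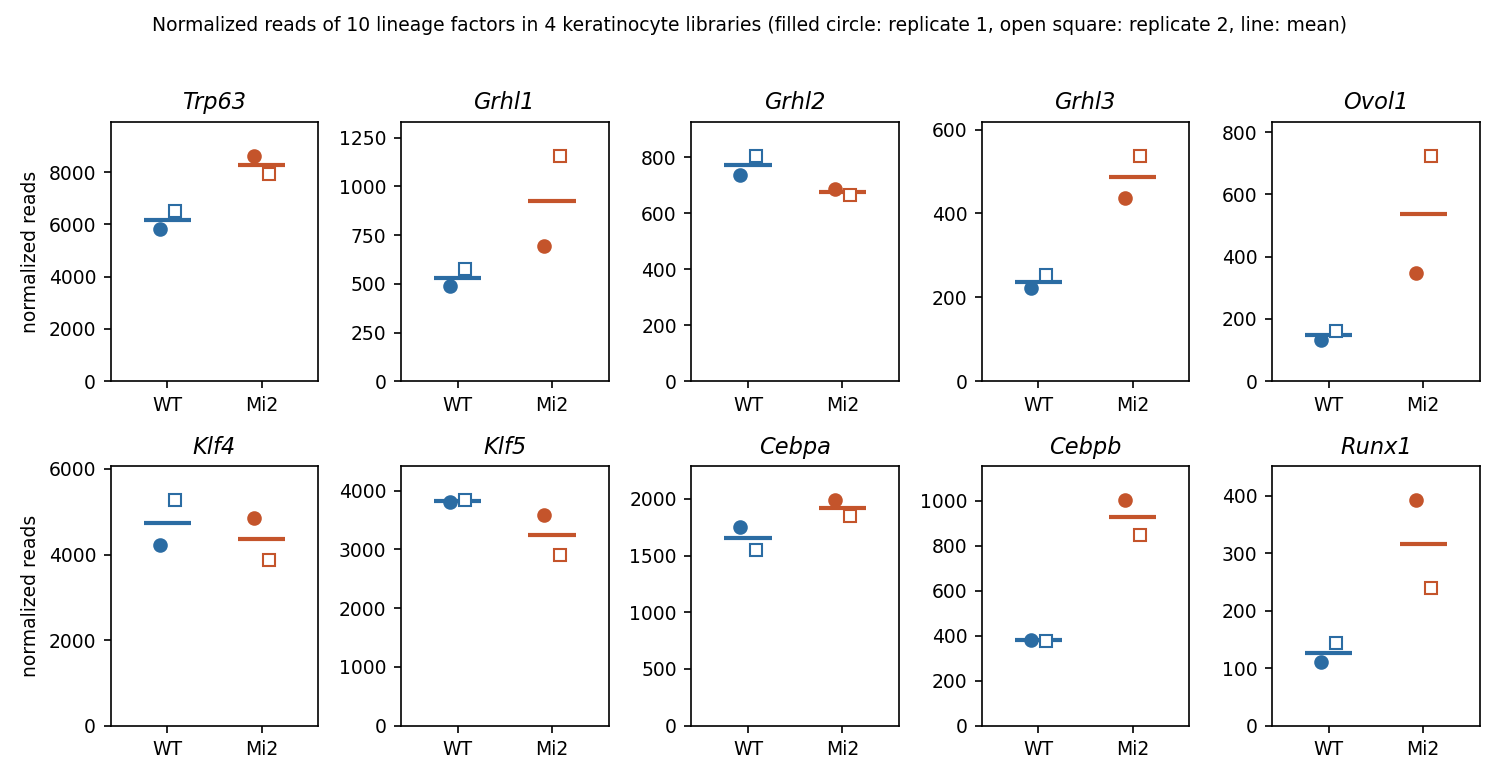
Normalized reads (vertical axes, linear and starting at 0) of each of the 10 genes in the 2 WT and 2 Mi2 libraries, with a line at each group mean. Grhl3, Ovol1, Cebpb and Runx1 lie apart between groups, Klf4 overlaps, and the Mi2 libraries lie far from each other for Grhl1, Ovol1 and Runx1.

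Trp63, the basal regulator, was abundant in every library. The WT libraries held 5833 and 6498 normalized reads of it and the Mi2 libraries 8631 and 7907. Both Mi2 libraries lay above both WT libraries, by a log2 change of 0.42 that was not called (SE 0.233, adjusted p = 0.207). The 95% interval of the change ran from -0.13 to 0.97, and Trp63 was not called under any of the 14 alternatives tried. The gene makes long (TA) and short (ΔN) proteins from separate promoters, and the table gives 1 value for the gene, so the forms are not separated here.

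Of the 3 Grainyhead-like factors, Grhl3 and Grhl1 were higher in both Mi2 libraries, and only Grhl3 was called. Grhl2 was lower in both and was not called. Grhl3, needed for skin barrier formation and wound repair, had 221 and 254 normalized reads in the WT libraries and rose to 438 and 538 in Mi2. Every Mi2 value was above every WT value, with a mean of 238 ± 23.2 in WT and 488 ± 70.9 in Mi2 (SD, n = 2 each). The log2 change was 1.03 (SE 0.212, limma adjusted p = 0.0141). Leaving out either WT library ended the call, with log2 changes of 0.93 and 1.13 (adjusted p = 0.138 and 0.0735).

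Grhl1, which is linked to desmosomal cadherin expression, had 487 and 576 normalized reads in the WT libraries, against 695 and 1158 in Mi2. Mi2 replicate 2 was 1.67-fold above Mi2 replicate 1, a wider gap than the 1.18-fold between the WT libraries. The log2 change of 0.76 was not called (SE 0.273, limma adjusted p = 0.0759), although its unadjusted 95% interval ran from 0.12 to 1.40. DESeq2 called it (adjusted p = 0.0464). It was also called without Mi2 replicate 1 (log2 change 1.13, adjusted p = 0.0160), and without Mi2 replicate 2 the log2 change was 0.39. Grhl2, the broad epithelial member of the family, had 737 and 807 in the WT libraries, against 686 and 665 in Mi2. Its log2 change of -0.19 was not called (SE 0.183, adjusted p = 0.458; 95% interval -0.62 to 0.24). Gm16136, annotated on the opposite strand over 169 bases of Grhl2 exons, fell from 300 and 271 to 169 and 144 (log2 change -0.86, limma adjusted p = 0.0263), and the sources used here do not give the strand setting of the counting.

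Within a library, the balance of the Grhl family can be followed without any scaling. The log2 ratio of Grhl3 to Grhl2 was -1.74 and -1.67 in WT and -0.65 and -0.31 in Mi2, a difference of 1.23, or 2.34-fold. The ratio of Grhl2 to Grhl1 went from 0.60 and 0.49 to -0.02 and -0.80, a difference of -0.95. Grhl3 to Grhl1 was -1.14 and -1.18 in WT and -0.67 and -1.11 in Mi2, a difference of 0.27. Without Mi2 replicate 1 that difference was 0.054. In each of these 3 ratios the groups did not overlap, and each had an exact two-sided permutation p = 0.33, the smallest that 2 libraries against 2 allow. No p under 0.05 can be reached by this permutation test with these libraries.

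Ovol1, a repressor that promotes exit from the cell cycle in differentiating keratinocytes, had the largest log2 change of the 10 genes. Its 133 and 163 normalized reads in the WT libraries rose to 349 and 725 in Mi2. Mi2 replicate 2 held 2.08-fold more than Mi2 replicate 1, so the size of the rise differs between the libraries while both lie above WT. The log2 change was 1.77 (SE 0.349, limma adjusted p = 0.0126), with 1.24 without Mi2 replicate 2 and 2.29 without Mi2 replicate 1. The call ended without WT replicate 1 (log2 change 1.62, adjusted p = 0.0676).

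Its paralog Ovol2, which guards epithelial against mesenchymal identity, went the other way. Ovol2 had 128 and 130 normalized reads in the WT libraries and fell to 10.6 and 28.6 in Mi2 (log2 change -2.81, SE 0.472, limma adjusted p = 0.00741), with -2.13 without Mi2 replicate 1 and -3.48 without Mi2 replicate 2. The log2 ratio of Ovol1 to Ovol2, with no pseudocount, was 0.05 and 0.32 in WT against 5.04 and 4.66 in Mi2, a 25.3-fold shift in balance. Its size rests on few Ovol2 reads in Mi2, where 1 read stands for 1.33 and 1.36 normalized reads. The ratio of Ovol1 to Ovol2 was chosen after its values were seen and is given as a description. In the GENCODE M21 annotation, Gm31166 and AC126029.1 lie opposite Ovol1 exons over 690 and 76 bases, with no value used here.

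**Figure D2:**
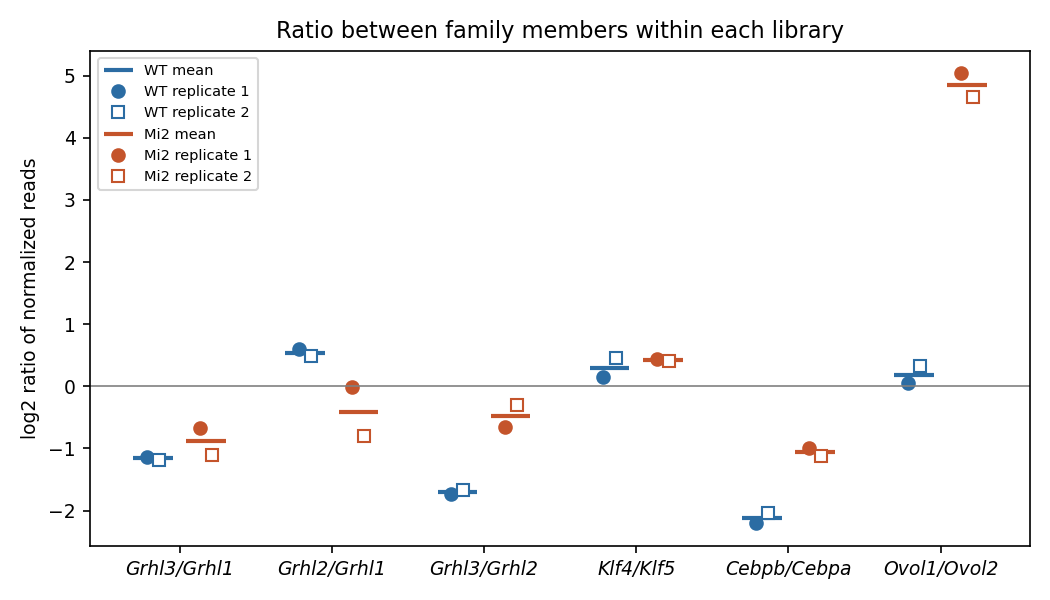
The log2 ratio of normalized reads between family members (vertical axis) in each WT and Mi2 library, with group means as lines. Ovol1 to Ovol2 stands near 0 in WT and near 5 in Mi2, Cebpb to Cebpa and Grhl3 to Grhl2 are higher in both Mi2 libraries, and Klf4 to Klf5 overlaps.

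The Krüppel-like factors were abundant and were not called. Klf4, a driver of barrier formation in suprabasal cells, had 4217 and 5276 normalized reads in the WT libraries, against 4847 and 3869 in Mi2. The groups overlapped, and the log2 change was -0.12 (SE 0.241, limma adjusted p = 0.725; 95% interval -0.69 to 0.44). Without WT replicate 2 or Mi2 replicate 2 the change was 0.038 and 0.039. Klf5, the basal member, had 3814 and 3842 in the WT libraries, against 3592 and 2911 in Mi2. Both Mi2 values were below WT, by a log2 change of -0.24 that was not called (SE 0.215, adjusted p = 0.422; 95% interval -0.75 to 0.26). The log2 ratio of Klf4 to Klf5 was 0.14 and 0.46 in WT against 0.43 and 0.41 in Mi2, with overlapping groups (difference 0.12, exact two-sided permutation p = 1). Without WT replicate 1 that difference was -0.036.

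Cebpb, a C/EBP factor of differentiation and of the acute stress response, had the smallest p of the 10 genes. The 2 WT libraries held 381 and 377 normalized reads of it, rising to 1003 and 849 in Mi2. The mean was 379 ± 3.05 in WT and 926 ± 109 in Mi2 (SD, n = 2 each), and the gap between groups was far wider than that within either pair. The log2 change was 1.28 (SE 0.192, limma adjusted p = 0.00531), and the gene was called under all 14 alternatives, with log2 changes from 1.05 to 1.40 and adjusted p from 1.4e-05 to 0.0464. Tmem189 (ENSMUSG00000090213, 1 of 2 IDs of that name), annotated on the opposite strand over 312 of the 1504 exonic bases of Cebpb, also rose, from 194 and 229 to 423 and 399 (log2 change 0.96, limma adjusted p = 0.0157). Without a known strand setting, reads of the shared stretch cannot be assigned to 1 of these genes.

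Cebpa, the partner that acts redundantly with Cebpb in the epidermis, had 1756 and 1551 in the WT libraries, against 1992 and 1851 in Mi2. Its log2 change of 0.22 was not called (SE 0.192, limma adjusted p = 0.420; 95% interval -0.23 to 0.67), and it was -0.015 when scaled without mitochondrial genes. The log2 ratio of Cebpb to Cebpa was -2.20 and -2.04 in WT and -0.99 and -1.13 in Mi2. The difference of 1.07, or 2.09-fold, had an exact two-sided permutation p = 0.33, again the smallest possible.

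Runx1 had 110 and 144 normalized reads in the WT libraries and rose to 393 and 240 in Mi2. Here Mi2 replicate 1 was the higher library, by 1.64-fold, the reverse of the order for Ovol1 and Grhl1. The log2 change was 1.28 (SE 0.298, limma adjusted p = 0.0207), and leaving out either WT library (1.09 and 1.47, adjusted p = 0.146 and 0.0587) or Mi2 replicate 1 (0.92, adjusted p = 0.0550) ended the call. It also ended with limma without trend (adjusted p = 0.0559). The proximal and distal promoters printed above make different Runx1 transcripts, and the table sums them.

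**Figure D3:**
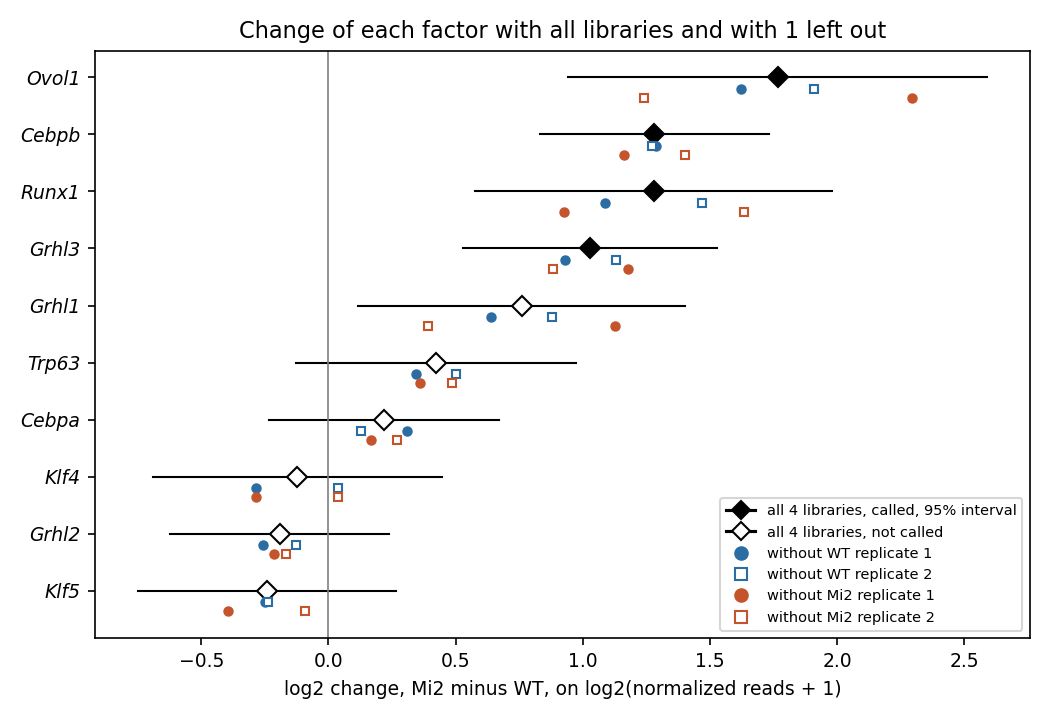
The log2 change of each gene (horizontal axis) with its 95% interval from all 4 libraries (diamonds, filled where called), and below it the change with 1 library left out. Cebpb varies least among the called genes, Ovol1 spans 1.24 to 2.29, and the points of Klf4 lie on both sides of 0.

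Runx1 and Cebpb are also expressed by blood-derived cells, so the markers of such cells in the sort stand beside them. Of 7 macrophage and neutrophil genes 4 were tested and none was called, with a summed level of 79.4 and 359 normalized reads in WT against 138 and 143 in Mi2, and the neutrophil gene Ly6g was at 0 in all libraries. Lyz2 made up much of the WT difference, with 0.992 and 182 against 1.33 and 2.72, and Csf1r lay at 48.6 and 67.5 against 70.3 and 77.6. The pan-leukocyte gene Ptprc had 4.96 and 4.36 in the WT libraries, against 5.31 and 1.36 in Mi2. The 6 T lymphocyte genes summed to 339 and 234 in WT against 1690 and 870 in Mi2, nearly all of it Thy1 (265 and 151 against 1631 and 812), while Cd3e was at 11.9 and 5.08 against 0 and 2.72 and Cd247 at 57.6 and 69.7 against 54.4 and 53.1. Runx1 and Thy1 were both higher in Mi2 replicate 1 than in Mi2 replicate 2, and the part of Thy1-positive cells in the Runx1 value was not tested.

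Langerhans and dendritic cell genes summed to 2002 and 1662 in WT against 2151 and 2505 in Mi2, with 2 of 6 tested members higher. Cst3 (1604 and 1282 against 853 and 970) and Mfge8 (20.8 and 21.1 against 756 and 560) were the most abundant, and the defining Cd207 lay at 14.9 and 1.45 against 3.98 and 14.98. The 2 higher genes were Mfge8 and Cd74 (169 and 181 against 337 and 666), while H2-Aa, H2-Ab1 and H2-Eb1 were not called. Fibroblast genes summed to 178 and 35.6 in WT against 78.3 and 8.17 in Mi2, led by Col1a1 and Col1a2. Melanocyte genes summed to 207 and 264 against 135 and 120, led by Pmel and by Mitf, which fell by 3.38 on the log2 scale. The endothelial genes Cdh5, Kdr and Emcn were at 0 in every library, and that list did not exceed 9.29 in sum. Sebocyte genes summed to 1922 and 2670 against 4053 and 5407, led by Scd1 and Fabp5, and 2 of 4 tested were higher. Fabp5 went from 68.5 and 73.3 to 1255 and 1058, and Awat2 lay at 0 and 4.36 against 0 and 2.72. Hair follicle genes summed to 895 and 1062 against 390 and 1614, led by Krt79, with Shh at 0 throughout. Of 4 tested, 1 was higher (Krt75, 10.9 and 7.26 against 65.0 and 32.7) and 2 were lower, Krt25 among them. The part of these cells in the changes of the 10 factors was not tested.

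Levels of different genes can be compared only per length, and here normalized reads were divided by the merged exon length of each gene in GENCODE M21, which is not the annotation the authors counted in and is long for genes with many isoforms such as Trp63 and Runx1. On that scale Klf4 was the highest of the 10 in WT, at 1383 and 1730 normalized reads per kilobase. Klf5 (733 and 739) and Trp63 (695 and 774) followed and did not differ beyond their spread, and Cebpa (666 and 589) came just below. Cebpb (253 and 251) stood between these and the low group. Grhl1 (88.0 and 104), Grhl2 (85.6 and 93.6) and Grhl3 (79.3 and 91.1) overlapped one another in WT, above Ovol1 (38.1 and 46.6) and Runx1.

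In Mi2 epidermis Klf4 again led, at 1590 and 1269 per kilobase, followed by Trp63 (1029 and 942). Cebpb, at 667 and 564, reached the range of Klf5, at 691 and 560, and stood below Cebpa (756 and 702). Grhl3 (157 and 193), Grhl1 (126 and 209) and Ovol1 (100 and 208) overlapped one another, while Grhl2 (79.6 and 77.2) was below all of them. Runx1 was the lowest of the 10 in every library, on a merged length of 12025 bases.

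The lists that follow stand beside the same background, 28.2% of all tested genes called (15.1% higher and 13.1% lower), and no list was tested against it. Of 25 relatives and cofactors of the 10 factors 21 were tested, 3 rose, 4 fell and 14 were not called, a share near that background, with a median log2 change of -0.19. Beside Ovol2, the stress-linked C/EBP family gene Ddit3 fell by 1.41 on the log2 scale (limma adjusted p = 0.0377), while Klf10, induced by TGF-β, rose by 1.07 (0.0199) and Cebpd by 0.99 (0.0323). Of the relatives with high values that were not called, Klf13 stood at 2069 and 2028 against 2853 and 2477 and Klf3 at 1731 and 1566 against 1296 and 1094. Klf3 was called lower when scaled without the 50 most abundant genes (log2 change -0.60) or without mitochondrial genes (-0.70). The calls of Klf10, Cebpd and Ddit3 ended without WT replicate 1 (log2 changes 0.87, 0.96 and -1.42), with WT replicate 2 left out (1.28, 1.02 and -1.39) and with Mi2 replicate 1 left out (0.84, 0.98 and -0.90). That of Cebpd also ended with the other 2 scalings (0.86 and 0.76) and with DESeq2 (1.01), that of Klf10 with limma without trend, and that of Ddit3 without trend and with no filter. The list had 1 gene called without either WT library, 2 without Mi2 replicate 1 and 11 without Mi2 replicate 2.

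Other transcription factors of the epidermis included called genes in both directions. Of 32 genes 30 were tested, 11 rose, 5 fell and 14 were not called, with a median log2 change of 0.25. Dlx3, a homeobox factor of differentiation and hair, had 20.8 and 19.6 normalized reads in the WT libraries and rose to 304 and 264 in Mi2 (log2 change 3.74, SE 0.271, limma adjusted p = 7.5e-04), and the Ets factor Ehf rose from 54.6 and 57.3 to 178 and 279. Tfap2b, an AP-2 factor, fell by 1.27 and Hopx, a homeodomain-only protein, by 1.48 on the log2 scale. Those calls ended without WT replicate 2 for Tfap2b (log2 change -1.17) and without WT replicate 1 for Hopx (-1.41). The abundant Hr, at 3578 and 3715 against 3413 and 6468, and Pou3f1, at 3180 and 2503 against 3294 and 2748, were not called. Hr had a log2 change of -0.10 without Mi2 replicate 2 and was called higher without Mi2 replicate 1 (0.83). The list had 5 genes called without WT replicate 1 and 8 without WT replicate 2.

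Genes that p63 is reported to control had no common direction: of 23, all tested, 5 rose, 4 fell and 14 were not called, with a median log2 change of -0.06. Beside Dlx3, the differentiation factor Zfp750 rose by 0.96 (limma adjusted p = 0.0129), while the growth factor receptor gene Fgfr2 fell from 3567 and 3369 to 720 and 1424 (log2 change -1.77, adjusted p = 0.00945) and Tfap2c fell by 0.87. The calls of Zfp750 and Tfap2c ended when WT replicate 1 (0.85 and -0.90) or WT replicate 2 (1.07 and -0.85) was left out. The basal keratins Krt5 and Krt14, with log2 changes of 0.30 and 0.92, were not called with limma, and DESeq2 called Krt14 (0.97). The number called was 2 without WT replicate 1, 3 without WT replicate 2 and 14 when Mi2 replicate 2 was left out.

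Of 12 genes with reported Grhl control 11 were tested, 4 rose, 2 fell and 5 were not called, with a median log2 change of 0.26. Tgm1, the transglutaminase of the cornified envelope, had 2.98 and 0 normalized reads in the WT libraries, 3 and 0 reads before scaling, against 405 and 198 in Mi2. Epcam, an epithelial adhesion gene, rose from 299 and 340 to 1095 and 1053 (log2 change 1.75, SE 0.188, limma adjusted p = 0.00184). The desmosomal cadherin gene Dsg1a fell from 6581 and 6234 to 544 and 1847 (log2 change -2.67, with -1.79 without Mi2 replicate 1 and -3.56 without Mi2 replicate 2), and Arhgef19, a RhoA exchange factor, from 428 and 407 to 79.6 and 143. Cdh1 and Esrp1, with log2 changes of 0.26 and -0.12, were not called, and Esrp1 was at 0.037 without Mi2 replicate 1. With either WT library left out 4 genes were called.

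Differentiation genes split. Of 20, all tested, 7 rose, 6 fell and 7 were not called, with a median log2 change of 0.44. Their summed level was nonetheless lower in Mi2, at 63430 and 59459 normalized reads in WT against 19121 and 38019, led by Krt10 and Krt1. The desmosomal cadherin gene Dsc1 rose by 3.83 and the lipid transporter gene Abca12 by 1.71, while the transglutaminase gene Tgm3 fell by 2.08 on the log2 scale (limma adjusted p = 5.9e-04, 0.00218 and 0.00240). Krt10 stood at 28432 and 28167 against 4945 and 17707 and was not called (log2 change -1.60, adjusted p = 0.0717), with a call without Mi2 replicate 2 (-2.52) and when scaled without mitochondrial genes (-1.83), and a log2 change of -0.68 without Mi2 replicate 1. Sbsn, at 1887 and 2004 against 2137 and 2105, was not called. The list had 7 genes called without WT replicate 1 and 8 without WT replicate 2.

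Mesenchymal genes that Ovol and Grhl factors are known to oppose were at low values for the most part. Of 10 such genes 3 passed the filter and 0 were called with limma, and 1 was lower at an unadjusted p under 0.05. edgeR called 1 lower, and DESeq2 and voom called 0. Of the 7 others, Snai1 and Cdh2 were at 0 throughout, and Zeb1 (0 and 2.18), Zeb2 (7.94 and 8.71) and Prrx1 (3.97 and 0) had reads in WT, against 0 in both Mi2 libraries for Zeb1 and Prrx1 and 2.65 and 0 for Zeb2. Twist1 (2.65 and 0) and Twist2 (3.98 and 1.36) had reads in Mi2 and 0 in both WT libraries. Snai2, which keratinocytes express, stood at 343 and 391 against 345 and 445. Fn1 lay at 117 and 910 in WT against 34.5 and 98.1 in Mi2 (log2 change -2.47, limma adjusted p = 0.0802), was called without WT replicate 1 (-3.94) and with edgeR (-2.96), and had a log2 change of -0.99 without WT replicate 2. Vim, the mesenchymal filament gene, lay at 80.4 and 83.5 in WT against 147 and 45.0 in Mi2, with Mi2 replicate 1 above and Mi2 replicate 2 below both WT libraries.

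**Figure D4:**
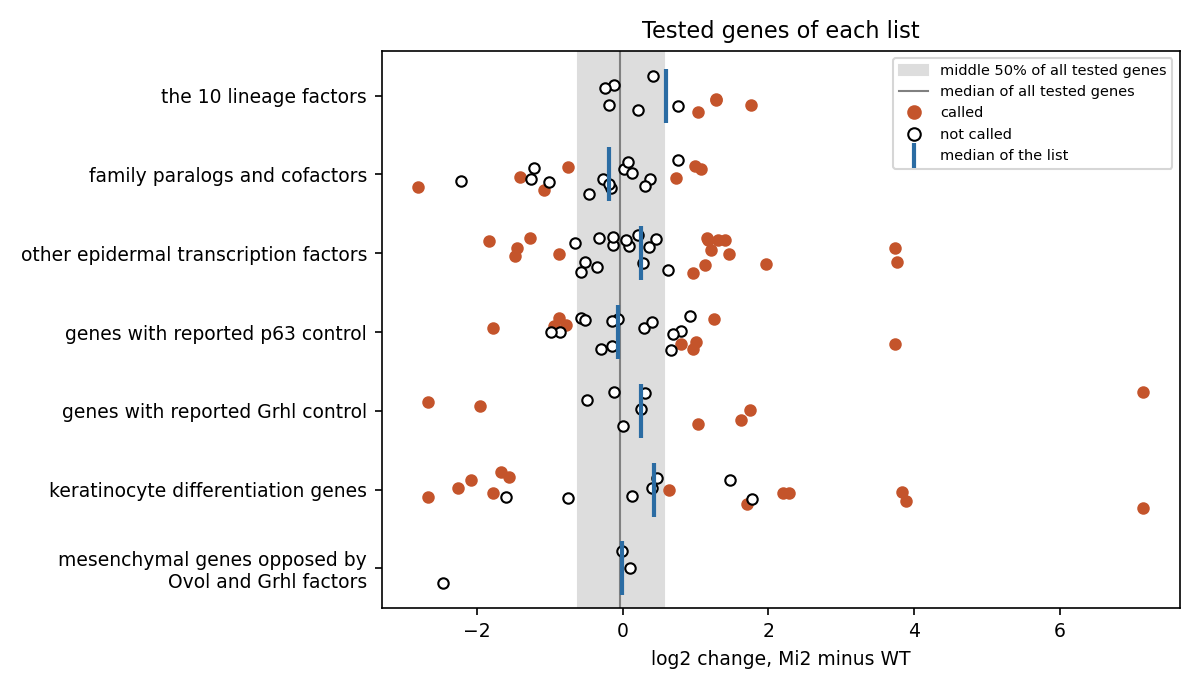
The log2 change (horizontal axis) of every tested gene of each list, filled where called, with the median of each list as a blue mark and the interquartile range of all tested genes shaded. The 10 lineage factors have no called gene on the lower side, beside 13.1% of all tested genes called lower, and nothing particular is read from this. The other lists, except the mesenchymal one with 0 called, have called genes on both sides.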

How the data were processed

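RNA was sequenced from sorted keratinocytes, 2 WT and 2 Mi2 libraries. The submitters' processing notes name bcl2fastq 1.8.3, STAR, DESeq2 and the builds mm9 and mm10 without roles, and the sources used here do not give the counting program, strand setting or annotation. The deposited signal is a normalized read count: per the file headers and values, every value was a whole multiple of 1 step per library (100% within 0.05 reads), so the authors' scaling could be undone to recover reads.

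limma 3.58.1 with an intensity trend (R 4.3.3) was run on log2(value + 1) for genes with a mean of at least 10, two-sided, over the 4 libraries, and its p-values were adjusted over all 14461 genes. The design named edgeR if the table held raw counts, which it did not. Alternatives were edgeR 4.0.16 and DESeq2 1.42.0 on recovered reads, voom, no trend, no filter, pseudocounts of 0.5 and 5, 2 other scalings, a replicate block and each library left out. The other scalings used each library's total of recovered reads over the genes kept, in place of the authors' factors. The fit was also run on simulated data, and nothing about the genes not called is read from that run. Each of the 10 factors had at least 111 reads in each library, and each group has 2 libraries.

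Named genes are the 10 factors, Chd4, up to 4 called genes with the smallest p and up to 2 abundant genes not called per list, and from each marker list its 2 highest genes by mean value, with any defining marker at 0. Tmem189, Gm16136, Krt15, Krt1, Vim, Zeb1, Zeb2, Prrx1, Twist1, Twist2, Cd3e, Ptprc and Cd207 were named after their values were seen, as were the 2 silent genes Snai1 and Cdh2. The same holds for Krt75, Awat2, Cd74, H2-Aa, H2-Ab1 and H2-Eb1. The members and lists were chosen with earlier results of these data known.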

Additional observations from a re-analysis of the deposited data

How the results depend on the processing

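Over 14 alternatives, Cebpb was called in 14, Ovol1 in 13, Grhl3 in 12 and Runx1 in 10, each higher in every one. Grhl1 was called in 3, Trp63, Grhl2, Klf4, Klf5 and Cebpa in 0. Grhl1 was called with DESeq2 (log2 change 0.81) and with the replicate block (0.76), and the call of Runx1 ended without trend (1.28). Cebpa turned to -0.015 when scaled without mitochondrial genes. With no filter the relatives had 3 genes called, and without trend 2, while p63-linked genes had 4 without trend. The mesenchymal list had 1 with edgeR and 1 with the block, under which Krt10 was also called. The sign also turned for some genes that were not called: with the 2 scalings Pou3f1 was at -0.036 and -0.14, Sbsn at -0.0033 and -0.11 and Snai2 at -0.031 and -0.14, and Krt79 was at 0.20 with edgeR and 0.20 with DESeq2. The cause of these shifts was not tested.

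With 1 library left out in turn, genes called ran from 1113 to 5815, higher from 771 to 2716 and lower from 342 to 3099. The 10 factors had 1 to 4 called, relatives 1 to 11, other epidermal factors 5 to 18, p63-linked genes 2 to 14, Grhl-linked genes 4 to 7, differentiation genes 7 to 14 and mesenchymal genes 0 to 1. Log2 changes ran from 0.39 to 1.13 for Grhl1, 0.88 to 1.18 for Grhl3, 1.24 to 2.29 for Ovol1, 0.92 to 1.63 for Runx1 and -0.29 to 0.039 for Klf4, and the Klf4 to Klf5 ratio difference from -0.036 to 0.28. Among other genes they ran from -0.10 to 0.83 for Hr, -0.080 to 0.27 for Pou3f1, -0.28 to 0.037 for Esrp1, -0.086 to 0.28 for Snai2, -4.29 to 1.06 for Col1a2 and -1.41 to 0.94 for Krt79. Without a WT library the Mi2 pair alone sets the spread (correlation of log2 values across genes 0.942, WT pair 0.978).

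The replicate block gave 5170 calls in place of 4085 and 5 of the 10 factors. Replicate numbers are shared between the groups, but no label says that they mark a shared animal or day. Deviations of same-numbered libraries correlated at 0.123 across genes, with 2 pairs, so the numbers were not taken as a pairing.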
